A study of Homo sapiens with 12 samples.

Results

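The nuclear genes of the respiratory chain and ATP synthase were taken as the rows whose symbol follows the naming of the subunits of complexes I to V (NDUFA, NDUFB, NDUFC, NDUFS and NDUFV; SDHA to SDHD; UQCR and CYC1; COX4 to COX8; ATP5), without pseudogene names. The pattern did not match the symbol COX4I1, so no COX4 gene was taken. The rule gave 80 of the 13881 genes listed, and all 80 passed the filter on low values and were tested. Of these, 74 code for subunits, namely 37 of complex I, 4 of complex II, 9 of complex III, 9 of complex IV and 15 of complex V. The other 6 are named with their values further on. The samples are RNA of 2 human cell lines of acute myeloid leukaemia, KG-1 and MOLM-14, each kept for 96 h in ASLAN003 or in the solvent DMSO. ASLAN003 inhibits DHODH, the enzyme of pyrimidine synthesis that sits in the inner mitochondrial membrane and passes electrons to ubiquinone. The 4 groups were KG-1 with ASLAN003, KG-1 with DMSO, MOLM-14 with ASLAN003 and MOLM-14 with DMSO, with 3 libraries each. Both lines were grown in RPMI1640 with bovine serum. Each line stands for 1 patient's leukaemia, and no dose is stated in the sources used here. The labels do not tie the 3 libraries of a group to separate cultures, so a p-value here compares a difference with the spread of libraries that may be technical repeats.

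Levels are given in FPKM, fragments per kilobase of transcript, scaled to the size of the library, and changes as differences of log2(FPKM + 1), which understate the change of genes with low levels. Depth, estimated from the steps of the lowest values, was 18000000 to 18900000 fragments per library. The myeloid genes PTPRC, SPI1, CD33, LYZ, CSF3R and FLT3 were present in every library, the lowest value being 17.5 FPKM for FLT3. MPO was at 4.04 FPKM or more. KIT, from the same list, was at 0.03 to 0.39 FPKM in KG-1 and 0.77 to 4.07 FPKM in MOLM-14. The progenitor marker CD34 was at most 0.17 FPKM in any library. KG-1 is usually described as CD34-positive, and the cause of the low CD34 values was not tested. Of 13 markers of other cell types, 7 have no row in the table used here and 6 do. Their summed level was 224 to 253 FPKM in KG-1 with ASLAN003 and 59.4 to 64.4 FPKM in KG-1 with DMSO, and 119.6 to 188 FPKM against 54.5 to 61.4 FPKM in MOLM-14. Without PECAM1, which myeloid cells also carry, these ranges were 29.2 to 42.4 and 29.4 to 36.6 FPKM in KG-1, and 22.6 to 29.4 and 34.0 to 37.7 FPKM in MOLM-14. The T cell gene CD3D was at most 0.22 FPKM and was at 0 in all MOLM-14 libraries. The epithelial gene EPCAM was at 0 there too and at 1.19 to 2.49 FPKM in KG-1. Epithelial KRT8 was at 14.9 to 28.4 FPKM in KG-1 and 1.80 to 4.71 FPKM in MOLM-14, and KRT18 at 2.31 to 3.62 and 15.3 to 31.8 FPKM. The fibroblast gene COL1A1 was at 6.30 to 10.7 FPKM in KG-1 and 0.49 to 5.01 FPKM in MOLM-14. The part of these markers in the results was not tested. Ribosomal protein genes held 15.8% ± 0.542 of listed FPKM in KG-1 with ASLAN003 and 26.3% ± 0.589 with DMSO, and 25.5% ± 2.63 against 34.1% ± 0.378 in MOLM-14 (SD, n = 3 each). MOLM-14 ASLAN003 replicate 1 lay apart from its group on the second principal component (-36.2, against -14.6 and -9.37), and KG-1 ASLAN003 replicate 3 held less mitochondrially encoded RNA (2.99% of listed FPKM, against 4.68% and 4.90%). In bulk RNA, fewer cells of a kind and less RNA per cell cannot be told apart.

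The respiratory chain moves electrons from NADH (complex I) and succinate (complex II) through ubiquinone to complex III, and from there through cytochrome c to complex IV, which reduces oxygen. Complexes I, III and IV pump protons across the inner mitochondrial membrane, and complex V, the ATP synthase, lets them return through a rotating ring of c subunits that drives ATP synthesis in the F1 head. Most subunits are coded in the nucleus and a few in mitochondrial DNA, and complex II is wholly nuclear. DHODH feeds its electrons into the same ubiquinone pool, between complexes I and II on one side and complex III on the other. Leukaemic blasts are known for their reliance on this pathway.

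Summed over their nuclear subunit genes, complex V had the largest relative gap between treatments in KG-1, followed by complex III. The sum for complex V was 3737, 3888 and 4126 FPKM in the libraries of KG-1 with ASLAN003, against 5412, 5293 and 5148 FPKM in those with DMSO, and the groups did not overlap. The mean was 3917 ± 196 FPKM with ASLAN003 and 5284 ± 132 FPKM with DMSO (SD, n = 3 each), 25.9% lower. The complex III sum was 1409.6 ± 34.9 FPKM with ASLAN003 against 1705 ± 16.6 FPKM with DMSO, 17.3% lower, also without overlap. Smaller gaps separated the other sums, at 316 ± 6.24 against 364 ± 11.5 FPKM for complex II and 2559.9 ± 77.9 against 2848 ± 62.2 FPKM for complex IV. Only complex I overlapped, at 4774 ± 246 FPKM with ASLAN003 and 5120.3 ± 130.5 FPKM with DMSO. In MOLM-14 the FPKM sums of the treatments overlapped for all 5 complexes. Complex V was at 4521, 5721 and 5168 FPKM in MOLM-14 with ASLAN003 against 5452, 5495 and 5709.7 FPKM with DMSO, with replicate 1 the lowest of the treated libraries. The means with ASLAN003 and with DMSO were 4698 ± 245 and 4679 ± 59.9 FPKM for complex I, 573 ± 44.0 and 561 ± 7.0 FPKM for II, 2163 ± 138 and 2254 ± 63.5 FPKM for III, and 3042 ± 286 and 3168 ± 92.3 FPKM for IV. FPKM is a share of a library that also holds the ribosomal protein RNA. As a percentage of all listed FPKM, complex V held 0.574% ± 0.0245 in KG-1 with ASLAN003 and 0.689% ± 0.0165 with DMSO, whereas complex I held 0.699% ± 0.0271 with ASLAN003 and 0.668% ± 0.0127 with DMSO, the opposite order from its FPKM sum. Complex IV turned too, at 0.375% ± 0.00662 against 0.371% ± 0.00412. In MOLM-14 the shares of complexes I and II were higher with ASLAN003 without overlap, unlike their sums. Complex I held 0.608% ± 0.0136 there with ASLAN003 and 0.557% ± 0.00227 with DMSO. Complex II held 0.0742% ± 0.00237 and 0.0668% ± 0.000848. The MOLM-14 shares of complexes III, IV and V overlapped. No test was made on these sums or shares.

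**Figure D1:**
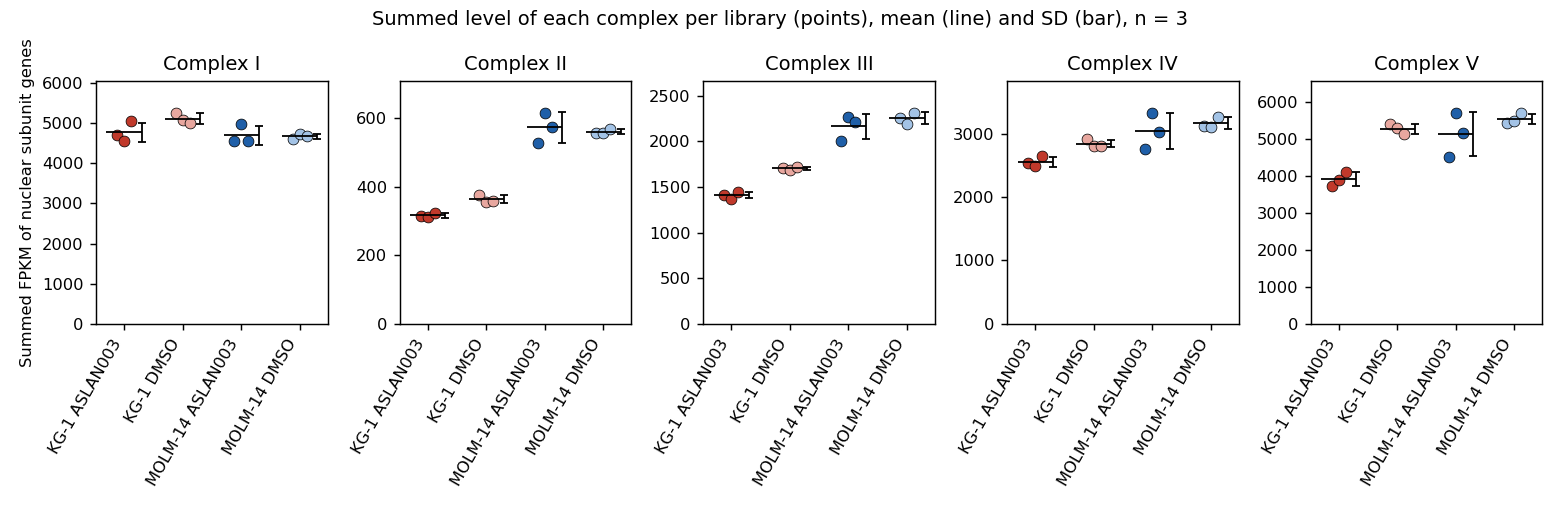
Summed FPKM of the nuclear subunit genes of each complex on the vertical axes, from 0, with 1 point per library, the mean as a line and the SD as a bar for the 4 groups (n = 3 each). For complex V the 3 libraries of KG-1 with ASLAN003 sit between 3737 and 4126 FPKM, below the 3 with DMSO, while for complex I the KG-1 groups overlap and their order turns round when the sums are expressed as a share of listed FPKM.

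In KG-1, 25 of the 80 members were lower with ASLAN003 than with DMSO and 4 were higher by limma's moderated test at an adjusted p under 0.05. Over all 13353 tested genes 14.3% were called lower and 19.4% higher, 33.7% in all, so the share of members called (36.2%) was near the background while the direction was mostly downward. The median change was -0.16 for the members and 0.05 for all tested genes. The libraries did not overlap for 39 members lower and 7 higher, against 55.9% of all tested genes in either direction. Complex V had 9 of its 15 subunit genes lower and 1 higher (median -0.36), complex III 4 of 9 lower (median -0.25), complex IV 3 of 9 lower (median -0.01), complex II 1 of 4 lower (median -0.15) and complex I 8 of 37 lower and 2 higher (median -0.06). When each library's FPKM was rescaled to sum to 1000000, the median change of all genes moved up by 0.15, the members' count became 13 lower and 10 higher, and the medians of complexes I (0.11), II (0.01) and IV (0.15) turned positive, while those of III (-0.09) and V (-0.19) stayed below 0. Centring library medians moved all genes down by 0.12, and of all calls 42.7% were then higher, 46.1% with quantile normalization and 74.3% with the rescaling, against 57.5% as deposited. The members' median lay below that of all genes under both of these shifts, at -0.28 against -0.07 when centred and -0.01 against 0.20 when rescaled. Without KG-1 ASLAN003 replicate 3, 26 members were lower and 3 higher. Of the 29 calls, 19 held whichever single library was left out. Rescaling kept 17 and lost 12, those of ATP5A1, ATP5G2, ATP5J2, COX5B, CYC1, NDUFA7, NDUFA12, NDUFB6, NDUFB8, NDUFV1, UQCR11 and UQCRH. The number higher was 2 without KG-1 ASLAN003 replicate 2, DMSO replicate 1 or DMSO replicate 2.

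The largest falls of the ATP synthase were in its rotor. The c ring, through which protons pass, is built from 1 mature protein coded by 3 genes, ATP5G1, ATP5G2 and ATP5G3 (now ATP5MC1 to ATP5MC3), which differ in their mitochondrial import sequences. ATP5G1, at chr17:48892765-48895871 on the plus strand (GRCh38, GENCODE 29, as are the other gene positions), had 117, 108 and 188 FPKM in KG-1 with ASLAN003, against 484, 445 and 374 FPKM with DMSO. The groups were far apart, with replicate 3 the highest of the treated libraries. ATP5G1 fell by 1.68 on the log2 scale (SE 0.21, adjusted p = 5.16e-05), more than any other member. ATP5G3 had 238, 229 and 235 FPKM with ASLAN003 against 337, 350.0 and 321 FPKM with DMSO and fell by 0.52 (SE 0.12, adjusted p = 0.00409). ATP5G2, the most abundant copy, had 487, 469.9 and 556 FPKM with ASLAN003 against 647, 599 and 661 FPKM with DMSO and fell by 0.34 (SE 0.09, adjusted p = 0.00985), a call lost after rescaling to 1000000 (adjusted p = 0.0856). Together the 3 genes made 842, 807 and 979 FPKM with ASLAN003, against 1468, 1394 and 1356 FPKM with DMSO. The share of ATP5G1 in this sum was 15.5% ± 3.19 with ASLAN003 and 30.8% ± 2.85 with DMSO, and in MOLM-14 it was 26.6% ± 3.01 and 27.4% ± 1.10 (SD, n = 3 each).

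In the central stalk that turns with the c ring, the delta and epsilon subunits went opposite ways. ATP5D, the delta subunit (chr19:1241746-1244826, plus strand), had 94.0, 93.4 and 109.6 FPKM in KG-1 with ASLAN003 against 243, 242 and 196 FPKM with DMSO, and fell by 1.19 (SE 0.13, adjusted p = 2.93e-05). ATP5E, the epsilon subunit, which binds beside delta (chr20:59025467-59032382, minus strand), had 109, 116 and 111 FPKM with ASLAN003 against 78.1, 87.8 and 72.3 FPKM with DMSO, and rose by 0.50 (SE 0.12, adjusted p = 0.00681). For both genes all treated libraries lay on one side of all control libraries, and both calls held under every alternative run. The gamma subunit gene ATP5C1 was not called (0.10, adjusted p = 0.606). In the F1 head, which makes ATP, the catalytic beta subunit gene ATP5B had 481, 497 and 479.5 FPKM with ASLAN003 against 716, 709 and 650.5 FPKM with DMSO (-0.51, SE 0.10, adjusted p = 0.00145), and the alpha subunit gene ATP5A1 was lower by a similar amount (-0.43, adjusted p = 0.0105). Of the peripheral stalk, which holds the head still, ATP5O fell (-0.62, SE 0.09, adjusted p = 0.000227), while ATP5H (-0.22), ATP5J (-0.19) and ATP5F1 (-0.07) were not called. ATP5I, a small membrane subunit, had 155, 159 and 222 FPKM with ASLAN003 against 307, 283 and 284 FPKM with DMSO and fell by 0.73 (SE 0.12, adjusted p = 0.000584). Another, ATP5J2, fell by 0.36 (adjusted p = 0.0384), a call lost when any KG-1 library other than ASLAN003 replicate 3 was left out (adjusted p = 0.077 to 0.159), and its reads overlap those of the readthrough gene ATP5J2-PTCD1. ATP5L (0.06) was not called.

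**Figure D2:**
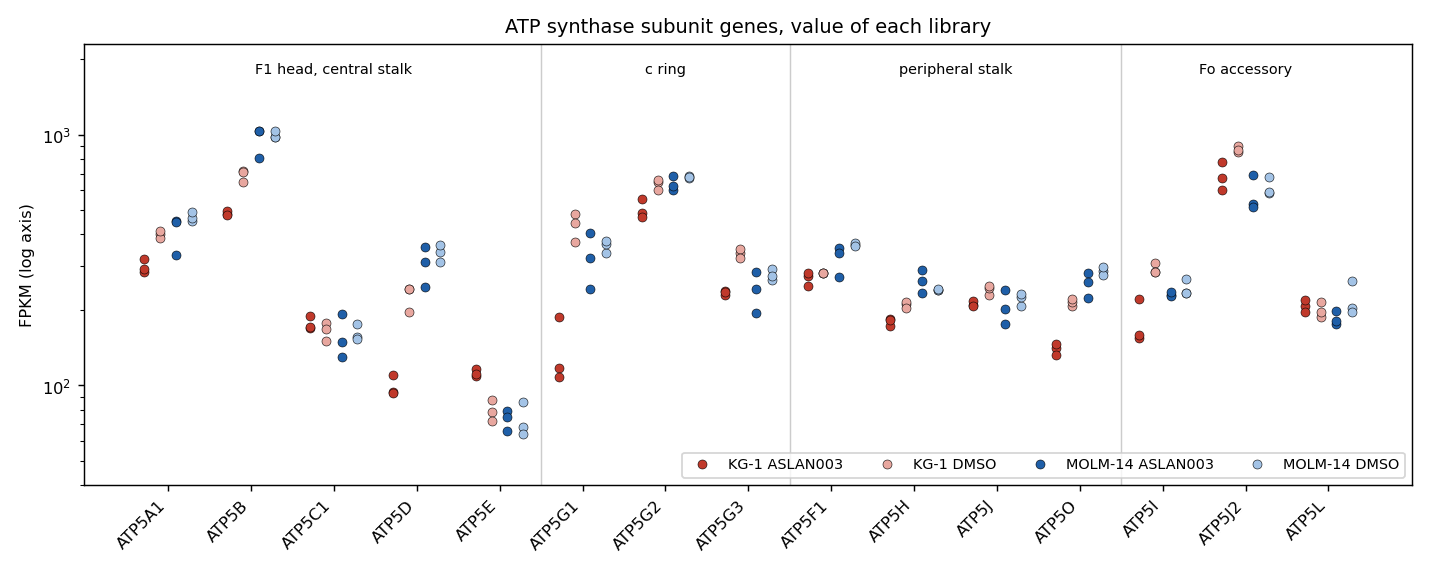
FPKM of the 15 ATP synthase subunit genes on a log axis, 1 point per library, grouped by the part of the enzyme they build, with the 4 groups side by side for each gene. The points of KG-1 with ASLAN003 lie below those with DMSO for ATP5D, ATP5G1 and ATP5O and above them for ATP5E, whereas the MOLM-14 points of these 4 genes overlap between treatments.

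Promoter sequences are shown for the members with the largest falls that could be matched and for 2 contrasts, ATP5E, which rose, and ATP5G2, the c-ring copy with the smallest fall. They are the 120 bases before the RefSeq start on the gene's own strand, 5′ to 3′ (RefSeq, GRCh38.p14); capitals mark a full cAMP response element in ATP5G1 and NDUFA10, an NRF1-type element in ATP5I and ATP5G2, and an ETS core in UQCRQ. NRF1 and the ETS factor GABP are known regulators of respiratory chain genes, and the cAMP response element is bound by CREB and ATF proteins. ATP5G1 lies at chr17:48892667-48892786 (+), NDUFA10 at chr2:240025343-240025462 (-), ATP5I at chr4:674277-674396 (-), UQCRQ at chr5:132866522-132866641 (+), ATP5E at chr20:59032336-59032455 (-) and ATP5G2 at chr12:53676084-53676203 (-). GENCODE 29 starts each of these genes further upstream than RefSeq, so by its positions every window shown overlaps its gene. The ATP5G2 window lies wholly inside the GENCODE 29 gene (chr12:53632726-53677408).
ATP5G1: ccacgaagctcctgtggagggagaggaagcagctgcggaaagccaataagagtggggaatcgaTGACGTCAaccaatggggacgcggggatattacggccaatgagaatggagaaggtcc
NDUFA10: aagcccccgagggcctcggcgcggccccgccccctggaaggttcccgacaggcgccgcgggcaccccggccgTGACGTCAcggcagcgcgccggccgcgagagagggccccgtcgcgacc
ATP5I: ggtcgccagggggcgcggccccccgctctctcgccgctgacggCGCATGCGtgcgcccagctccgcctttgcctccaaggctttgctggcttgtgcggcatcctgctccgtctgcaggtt
UQCRQ: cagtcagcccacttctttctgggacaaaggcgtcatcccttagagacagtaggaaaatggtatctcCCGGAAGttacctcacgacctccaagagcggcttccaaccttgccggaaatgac
ATP5E: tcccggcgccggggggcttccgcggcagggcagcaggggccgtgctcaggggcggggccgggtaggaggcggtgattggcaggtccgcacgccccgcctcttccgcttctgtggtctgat
ATP5G2: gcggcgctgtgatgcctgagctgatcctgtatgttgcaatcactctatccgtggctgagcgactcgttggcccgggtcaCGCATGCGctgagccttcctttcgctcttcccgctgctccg

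Motifs were searched on both strands in the 250 bases before the start, for which 63 of the 80 members and 60 of the 74 subunit genes had a RefSeq window. The NRF1 short site TGCGCA was found in 26.7% of the subunit genes and in 12% of the 9825 tested genes with a window. The NRF1 centre GCATGCG, whose matches can overlap those of the short site, was found in 20% and 5.98%, the ETS core CCGGAAG in 26.7% and 17.2%, and the YY1 core AAGATGG in 6.67% and 3.70%. The letters TGACGT of the cAMP response element were found in 20% of the subunit genes and 10.7% of tested genes. Over all 27305 windows the shares were 7.05%, 3.57%, 8.82%, 3.77% and 7.42% in the same order of motifs. Of the 20 subunit genes with a window that were lower in KG-1 with ASLAN003, 7 held TGACGT (35%; NDUFA10, NDUFA7, NDUFB6, NDUFV1, COX5A, ATP5G1 and ATP5I), against 5 of the other 40 (12.5%). The shares of the other 4 motifs among the lower genes and among the other 40 were in the opposite order, at 20% against 30% for the NRF1 short site, 15% against 22.5% for the NRF1 centre, 20% against 30% for the ETS core and 5% against 7.5% for the YY1 core. None of these splits was tested. GCATGCG and TGACGT were added to the search after the sequences of the genes with the largest falls had been read. ATP5G1 and NDUFA10, whose printed sequences hold TGACGT, are among the 7 lower genes counted with it. The TGACGT split is therefore partly set by how the motif was picked. A match is a run of letters in this window and no evidence that a factor binds there.

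Complex I takes electrons from NADH and is the largest enzyme of the chain. Its redox centres lie in some of the core subunits. Of the core subunits, NDUFV1, which binds NADH and FMN, had 149, 136 and 148 FPKM with ASLAN003 against 195, 185 and 187 FPKM with DMSO (-0.39, SE 0.08, adjusted p = 0.00331). That call was lost after rescaling to 1000000 (adjusted p = 0.0565). The core subunits NDUFS7 (-0.46, adjusted p = 0.0587), NDUFV2 (-0.26), NDUFS3 (-0.21), NDUFS8 (-0.17) and NDUFS1 (-0.06) were not called. NDUFS7 was called in 9 of 22 alternatives (lowest adjusted p = 0.0216) and NDUFV2 in 2, but NDUFS3, NDUFS8 and NDUFS1 in 0. The largest fall in the complex was that of NDUFA10, an accessory subunit of the membrane arm (chr2:239892450-240025402, minus strand), with 42.3, 44.5 and 42.2 FPKM with ASLAN003 against 78.1, 75.7 and 78.8 FPKM with DMSO (-0.84, SE 0.09, adjusted p = 1.54e-05). The treated libraries lay close together and well below the controls. NDUFB1, a small membrane arm subunit, had 68.5, 81.5 and 72.8 FPKM with ASLAN003 against 111, 118.5 and 136 FPKM with DMSO (-0.70, SE 0.13, adjusted p = 0.00114).

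The other 5 accessory genes of complex I that fell in KG-1 with ASLAN003 were NDUFA7 (-0.67), NDUFA11 (-0.45), NDUFB6 (-0.36), NDUFA12 (-0.34) and NDUFB8 (-0.31). NDUFA7 was uneven, with 74.8, 60.2 and 125 FPKM with ASLAN003 against 142, 123 and 131 FPKM with DMSO, so that the groups overlapped through replicate 3. NDUFB9 rose by 0.24 (adjusted p = 0.0485), a call lost in 14 of 22 alternatives. The calls of NDUFA7, NDUFA12, NDUFB6 and NDUFB8 were each lost without at least 1 library. The remaining 22 accessory genes lay between -0.20 (NDUFB11) and 0.30 (NDUFC1) and were not called, among them NDUFA4, which is named for complex I and assigned to complex IV by biochemistry (0.17).

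Complex II, succinate dehydrogenase, joins the tricarboxylic acid cycle to the chain. All 4 of its genes lay below 0 in KG-1, and only the catalytic flavoprotein gene was called. SDHA (chr5:218241-256700, plus strand) had 41.2, 43.6 and 42.4 FPKM in KG-1 with ASLAN003 against 62.7, 54.7 and 64.7 FPKM with DMSO, and fell by 0.50 (SE 0.09, adjusted p = 0.00123). The iron-sulphur subunit gene SDHB (-0.08, adjusted p = 0.589) and the membrane anchor genes SDHC (-0.21, adjusted p = 0.125) and SDHD (-0.10, adjusted p = 0.495) were not called. SDHC was called after rescaling without abundant gene classes (adjusted p = 0.0408) and with centring (0.034).

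In complex III, which passes electrons from ubiquinol to cytochrome c, the falls were mostly of small subunits. UQCRQ (chr5:132866560-132868031, plus strand) had 107, 119.9 and 142 FPKM in KG-1 with ASLAN003 against 190.4, 203 and 222 FPKM with DMSO and fell by 0.74 (SE 0.14, adjusted p = 0.00131). UQCR11 fell by 0.38 (adjusted p = 0.0247), a call lost after rescaling to 1000000 (adjusted p = 0.144), without KG-1 ASLAN003 replicate 2 (0.111) and without DMSO replicate 1 (0.108). UQCRH fell by 0.37 (adjusted p = 0.00821), with reads that the near-copy UQCRHL can share. Of the subunits that carry the electrons, cytochrome c1 (CYC1) had 82.7, 81.4 and 86.9 FPKM with ASLAN003 against 103, 108 and 96.5 FPKM with DMSO (-0.29, adjusted p = 0.0175; lost without ASLAN003 replicate 1 or 2 or DMSO replicate 1 or 2), and the Rieske protein gene UQCRFS1 was not called (-0.21). The core protein genes UQCRC1 (0.02) and UQCRC2 (-0.06), and UQCRB (-0.25) and UQCR10 (0.08), were not called either.

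Complex IV, cytochrome c oxidase, had 3 falls. COX5A (chr15:74919791-74938168, minus strand) had 291, 289 and 263 FPKM in KG-1 with ASLAN003 against 427, 421 and 421 FPKM with DMSO and fell by 0.59 (SE 0.10, adjusted p = 0.000756). COX7C had 302, 292 and 337 FPKM with ASLAN003 against 452, 437 and 469.6 FPKM with DMSO and fell by 0.55 (SE 0.15, adjusted p = 0.0141), or 0.0528 without ASLAN003 replicate 2. COX5B fell by 0.39 (adjusted p = 0.00905). The other 6 lay between -0.19 (COX6B1) and 0.16 (COX7A2), and among them COX6A1, COX6B1, COX7A2 and COX8A are the isoforms found in most tissues.

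In MOLM-14, 1 member was higher and 1 lower with ASLAN003 than with DMSO, 2.50% of the members, against 13.0% of all tested genes called (9.69% higher, 3.33% lower). Both are accessory subunits of complex I. The background share depended on the joint fit. With MOLM-14 fitted alone, 346 of the 13353 tested genes were called rather than 1738, and 0 members were. NDUFA12 had 183, 191 and 176 FPKM with ASLAN003 against 122, 139.9 and 159.5 FPKM with DMSO and rose by 0.39 (SE 0.10, adjusted p = 0.0244). That call was lost without ASLAN003 replicate 2 (0.0618), DMSO replicate 1 (0.0988) or DMSO replicate 2 (0.0698), with centring (0.165) and in 3 other settings. NDUFA9, which lies at the joint of its arms, had 70.6, 54.0 and 61.1 FPKM with ASLAN003 against 90.9, 83.6 and 95.2 FPKM with DMSO and fell by 0.54 (SE 0.11, adjusted p = 0.00883), a call lost when MOLM-14 was fitted alone (0.0744). Complexes II to V had 0 calls by limma, and at an unadjusted p under 0.05 they had 1, 0, 0 and 1 genes. The members' median was -0.06 and that of all tested genes 0.08, and libraries did not overlap for 5 members higher and 8 lower, against 25.9% of tested genes. Rescaling to 1000000 moved all genes by 0.11 and gave 7 members higher and 1 lower with a median of 0.06, and centring moved them by -0.15 and gave 0 higher and 9 lower with a median of -0.21, so the direction of the members in MOLM-14 turned with the scaling. Of all calls 74.5% were higher as deposited, 87.1% rescaled, 64.3% without the abundant gene classes, 44.2% centred and 57.1% with quantile normalization. The spread between libraries was wider here: the median SD over members was 0.17 in MOLM-14 with ASLAN003 and 0.09 with DMSO, against 0.08 in both KG-1 groups. Without ASLAN003 replicate 1, 5 members were called higher.

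The changes themselves differed between the lines for 9 members, 11.2%, against 9.94% of all tested genes. Of these, 7 had a lower change in KG-1 (4.89% of tested genes did), with differences of -1.50 for ATP5G1, -1.02 for ATP5D, -0.81 for NDUFA10 and for NDUFB1, -0.73 for NDUFA12, -0.64 for ATP5I and -0.45 for ATP5O. ATP5SL (0.53) and NDUFA9 (0.60) had a higher change in KG-1 (5.05% of tested genes did). ATP5G1 had 244, 404 and 322 FPKM in MOLM-14 with ASLAN003 against 336, 366 and 378 FPKM with DMSO, a change of -0.18 beside -1.68 in KG-1 (adjusted p of the difference = 0.00746). ATP5D had 309.6, 355 and 247 FPKM in MOLM-14 with ASLAN003 against 340.2, 363 and 311 FPKM with DMSO, a change of -0.16 beside -1.19 (adjusted p of the difference = 0.00599). NDUFA10 had 93.6, 94.4 and 102 FPKM in MOLM-14 with ASLAN003 against 96.0, 91.9 and 108 FPKM with DMSO, a change of -0.03 beside -0.84 (adjusted p of the difference = 0.00205). In all 3 the MOLM-14 treatments overlapped where the KG-1 treatments did not. NDUFA12 was called in both lines in opposite directions, with 78.9, 74.5 and 85.2 FPKM in KG-1 with ASLAN003 against 104, 99.9 and 99.4 FPKM with DMSO (-0.34), where MOLM-14 rose (adjusted p of the difference = 0.00763). The differences of ATP5D, ATP5G1, NDUFA10, NDUFA12 and NDUFB1 were called in every alternative run, and those of ATP5I, ATP5O, ATP5SL and NDUFA9 were each lost without at least 1 library. Without MOLM-14 ASLAN003 replicate 1, 18 members rather than 7 had a lower change in KG-1, and over all tested genes 1181 rather than 653 did. Across the 80 members the changes in the lines had Pearson's r = 0.279 and Spearman's rho = 0.342, and across all tested genes 0.432 and 0.459; genes within the same libraries are not independent replicates.

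**Figure D3:**
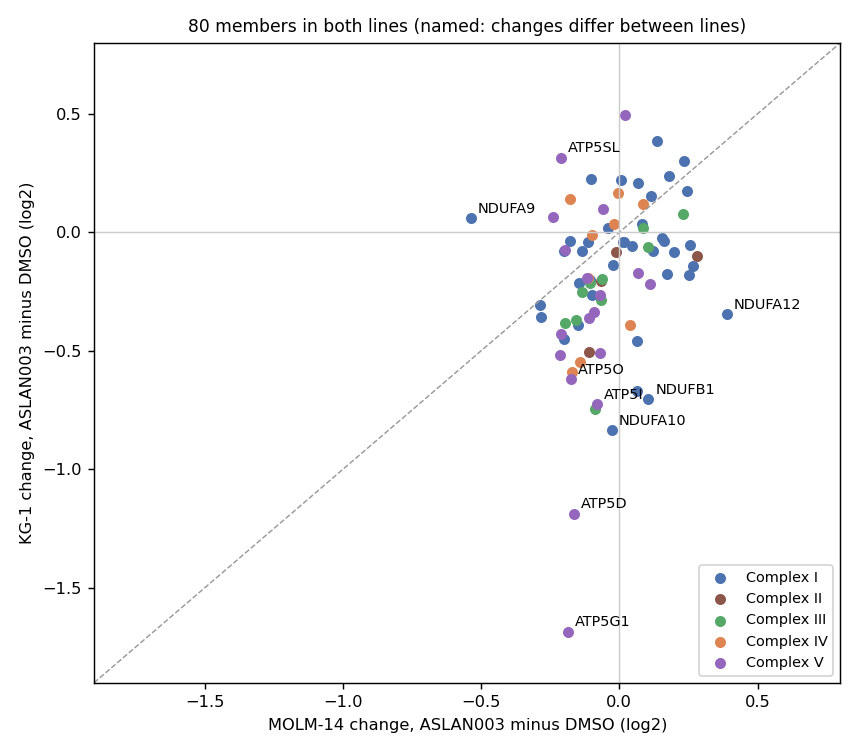
Change of the 80 members in KG-1 (vertical) against MOLM-14 (horizontal), both as ASLAN003 minus DMSO in log2(FPKM + 1), with the line of equal change dashed. Colours give the complex by symbol, also for members that are not subunit genes, such as ATP5SL. The 9 named genes had changes that differed between the lines. ATP5G1 and ATP5D lie far below the line at -1.68 and -1.19 in KG-1, and NDUFA9 and ATP5SL lie above it.

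Between the lines in DMSO, 13 members were higher and 24 lower in KG-1 than in MOLM-14, against 27.1% of tested genes called higher and 22.1% lower (49.2% in all). The libraries did not overlap for 19 members higher and 31 lower, against 63.3% of tested genes. The members' median difference was -0.05, and 0.07 after rescaling to 1000000, which moved all genes by 0.12 and brought the number higher to 22. All 4 genes of complex II were lower in KG-1. SDHA had 62.7, 54.7 and 64.7 FPKM in KG-1 against 141, 139 and 129.7 FPKM in MOLM-14 (-1.16, SE 0.09, adjusted p = 5.63e-07), followed by SDHD (-0.63), SDHC (-0.45) and SDHB (-0.36, a call lost after rescaling with adjusted p = 0.0511). Complex I went both ways, with 12 subunit genes higher and 8 lower. NDUFC2, a membrane arm subunit, had 186, 217 and 179.8 FPKM in KG-1 against 100.4, 96.4 and 106 FPKM in MOLM-14 (0.94, SE 0.09, adjusted p = 3.44e-06), and NDUFA5 (0.80) was next, whereas NDUFB9 (-1.13) and NDUFA8 (-0.68) were lower and the core gene NDUFS8 (0.57) higher. In complex V, ATP5D (-0.57), ATP5B (-0.53), ATP5O (-0.41) and ATP5F1 (-0.37) were lower and ATP5J2 was higher (0.50), while none of the 3 c-ring genes was called (ATP5G3 0.29, adjusted p = 0.0569).

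Several of the largest differences between the lines in DMSO fell on 1 chromosome, with SDHA and NDUFA4L2 as exceptions. CYC1 had 103, 108 and 96.5 FPKM in KG-1 against 336, 339.8 and 327 FPKM in MOLM-14 (-1.70, SE 0.08, adjusted p = 5.64e-09). COX6C, a complex IV subunit, had 141, 140.4 and 162 FPKM in KG-1 against 323, 337 and 366 FPKM in MOLM-14 (-1.21), and UQCRB, a complex III subunit, had 186, 187 and 219 FPKM against 442, 435 and 479 FPKM (-1.19). These 3 and NDUFB9 are the 4 members on chromosome 8, with a median of -1.20, against -0.92 for the 440 tested genes of that chromosome, of which 312 (70.9%) were called lower. Over all chromosomes 22.1% of tested genes were lower. The number of copies of the chromosome in these cells is not measured here. Outside it, complex III had no called subunit other than UQCRC2 (-0.33, a call lost after rescaling). Complex IV by symbol had none other than COX6B1 (-0.49) and COX6A1 (-0.28). COX4I1, a complex IV subunit gene that the naming rule misses, was also lower in KG-1 (-0.65, SE 0.08, adjusted p = 3.80e-05). COX7A2L, missed by the rule too, was not called (-0.10). NDUFA4 on chromosome 7, counted in complex I by its symbol, was higher in KG-1 (0.55, adjusted p = 0.0294). The NDUFA4 call was lost without any DMSO library other than KG-1 replicate 3 (0.0509 to 0.111). The COX6A1 call was lost after rescaling (adjusted p = 0.128), with no trend and no robust estimation (0.0607), and without any DMSO library other than KG-1 replicate 1 (0.0544 to 0.0755). Members on chromosomes 7 and X lay mostly above 0 (medians of 0.50 over 5 and 0.44 over 3 members, against 0.38 and 0.43 for all tested genes there).

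**Figure D4:**
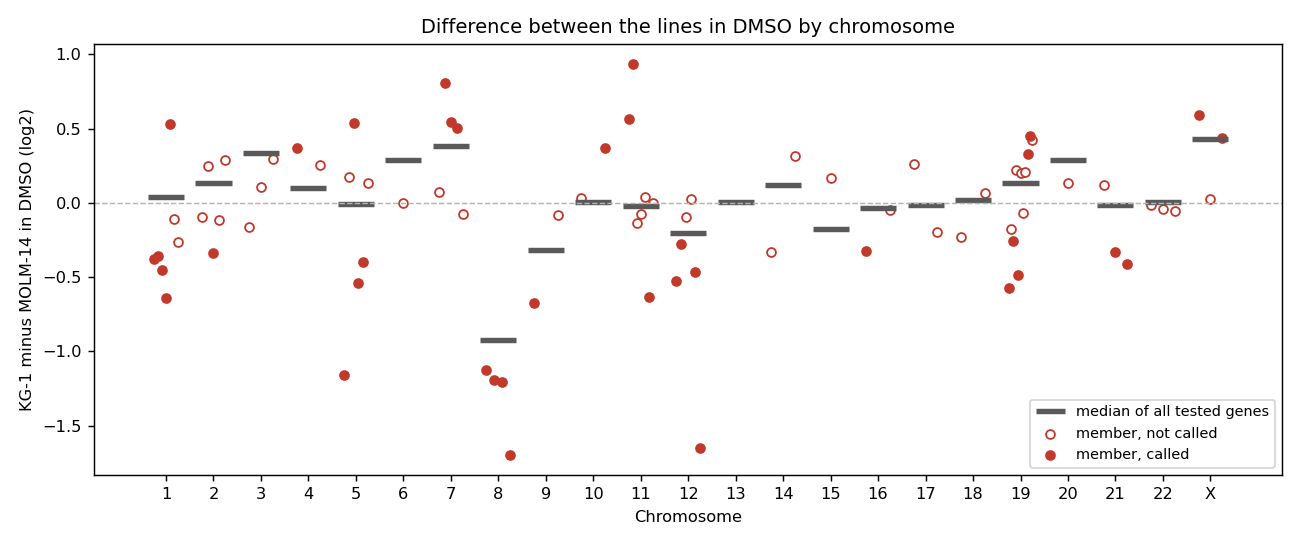
Difference in log2(FPKM + 1) between KG-1 and MOLM-14 in DMSO for each member (points, filled if called) by chromosome, with the median of all tested genes of the chromosome as a bar. The 4 members on chromosome 8 lie at or below -1.13, near the chromosome's median of -0.92, and the point at -1.65 on chromosome 12 is NDUFA4L2.

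The 6 members that are not subunit genes were mostly low. NDUFA4L2, a paralog of NDUFA4, was at 0.45, 0.15 and 0.16 FPKM in KG-1 with ASLAN003 against 0.32, 0.28 and 0.53 FPKM with DMSO, and at 2.30, 5.45 and 2.58 FPKM in MOLM-14 with ASLAN003 against 2.69, 3.36 and 3.96 FPKM with DMSO. It was lower in KG-1 with DMSO than in MOLM-14 with DMSO (-1.65, SE 0.25, adjusted p = 0.000163) but passed the filter on low values through MOLM-14 alone, so it had to differ. NDUFA6-AS1, an antisense RNA, UQCRHL, ATP5J2-PTCD1 and ATP5S, a factor outside the enzyme, were at most 17.5 FPKM in any library and had no call under either treatment. ATP5SL, named DMAC2 in GENCODE 29, is also outside the enzyme and was placed with complex V by its older symbol alone. It had 56.3, 57.8 and 57.8 FPKM in KG-1 with ASLAN003 against 45.4, 43.9 and 48.4 FPKM with DMSO (0.31, adjusted p = 0.0193). That call was lost in 6 of 22 alternatives, among them without ASLAN003 replicate 2, DMSO replicate 1 and DMSO replicate 2.

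Genes around the chain were followed as lists, whose counts stand beside 14.3% of all tested genes lower and 19.4% higher in KG-1, and 3.33% lower and 9.69% higher in MOLM-14. Of 6 further nuclear genes of these complexes that the naming rule misses, not all of them subunit genes, 4 were lower in KG-1 with ASLAN003 and 0 higher. The 4 lower genes were ATPIF1 (-0.53), NDUFAB1 (-0.46), COX7A2L (-0.45) and C14orf2 (-0.42), while COX4I1 (-0.14) and USMG5 (-0.22) were not called. ATPIF1 codes for the inhibitor of reverse ATP synthase action and not for a subunit. Of 18 complex I assembly factors, 8 were lower and 0 higher in KG-1 (median -0.36), with NDUFAF2 (-1.02), C17orf89 (-0.90) and ECSIT (-0.75) in front. Single genes were lower among the assembly factors of complex II (SDHAF4, -1.08, 1 of 4) and complex III (BCS1L, which inserts the Rieske protein, -1.23, adjusted p = 1.29e-05, 1 of 6). Of 24 complex IV assembly factors, LRPPRC (-0.78), COA7 (-0.56) and COX11 (-0.47) were lower, a share near that of all tested genes, and 1 was higher (COX17, a copper chaperone, 0.47). Of 4 complex V assembly factors, C7orf55 was higher in KG-1 (0.70, adjusted p = 0.0452) and in MOLM-14 (1.87, adjusted p = 0.000716). In MOLM-14 the complex I factors had 1 higher (COA1, 0.51) and 1 lower (ECSIT, -0.44). BCS1L was lower there too (-0.42, adjusted p = 0.0449), and SDHAF1 (0.66), UQCC2 (0.60) and COA3 (0.38) were higher. The difference between the lines was called for 8 assembly factors, all with a lower change in KG-1: SDHAF4 (-1.35), C17orf89 (-1.14), NDUFAF3 (-0.84), BCS1L (-0.81), COA1 (-0.73), UQCC2 (-0.64), ACAD9 (-0.60) and COA3 (-0.53). By list they were 4 of 18 for complex I, 1 of 4 for II, 2 of 6 for III, 1 of 24 for IV and 0 of 4 for V. Over all tested genes, 4.89% had a lower change in KG-1 and 5.05% a higher one.

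Of 7 genes that feed electrons to ubiquinone or carry them as cytochrome c, SQRDL, the sulphide quinone reductase, rose in KG-1 (1.56, SE 0.20, adjusted p = 8.33e-05) and in MOLM-14 (1.19, SE 0.20, adjusted p = 0.00291), while ETFB (-0.39) and ETFA (-0.32) fell in KG-1. DHODH itself was not called (-0.48, adjusted p = 0.0836 in KG-1 and -0.23, adjusted p = 0.509 in MOLM-14). Of 13 ubiquinone synthesis genes, 4 were lower in KG-1, led by COQ3 (-0.86) and PDSS1 (-0.79), and COQ10B was higher in KG-1 (0.89) and in MOLM-14 (0.68). The tricarboxylic acid cycle list had 7 of 18 lower and 0 higher in KG-1 (median -0.19), led by DLAT (-0.73), FH (-0.66) and MDH2 (-0.55), and 1 lower in MOLM-14, FH (-0.31). Of 14 regulators, TFB1M, which methylates mitochondrial ribosomal RNA (-0.99), and the genes of the mitochondrial DNA helicase C10orf2 (-0.75) and of TFAM, which binds mitochondrial DNA (-0.36), fell in KG-1 and POLG rose (0.54, and 0.42 in MOLM-14), while NRF1 (0.13) and GABPA (0.25) were not called. Of the 13 mitochondrially encoded subunits, 9 were lower in KG-1, led by MT-CO3 (-1.28), MT-CYB (-1.18) and MT-ATP6 (-0.99), and MT-ND6 (0.72) and MT-ND5 (0.45) were higher, where replicate 3 with ASLAN003 held the least of this RNA, and MT-CO1 was higher in MOLM-14 (0.53). The part of the ribosomal protein share and of that library in the values of these lists was not tested.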

How the data were processed

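RNA of 12 libraries (4 groups of 3) was made into libraries with a stranded total RNA kit and read in pairs, per the labels' protocols. The submitters' processing notes name RSEM 1.2.25, STAR 2.4.2a and bcl2fastq 2.17.1.14 and the build hg38 (GRCh38); which annotation was used is not stated in these sources. The authors deposited 1 log2 value per gene and library; from its values the scale is log2(FPKM + 1). FPKM is relative to the library, so abundant transcripts move all others, and reads of near-identical copies may be split between them. No counts were used; depth was estimated from low values of single-transcript genes, of which 73.9% to 82.1% lay within 0.15 fragment of a whole number (30% for uniform values, with an assumed fragment length of 180).

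Here, limma 3.58.1 (R 4.3.3) fitted the 4 group means to log2(FPKM + 1) for the 13353 genes that reached 1 FPKM in 3 libraries or more (eBayes with trend and robust estimation, two-sided, Benjamini-Hochberg over all tested genes, called at an adjusted p under 0.05). Contrasts were ASLAN003 minus DMSO per line, the difference of these changes, and KG-1 minus MOLM-14 in DMSO. The fit was tested on simulated data. Members and lists were chosen with earlier results of these data known, so counts and medians are given without a test of the list. Named genes are, per contrast and complex, the 2 called members that rose most and the 2 that fell most, the SDH, ATP5G and core complex I families, the members that are not subunits, and the leading called genes of each list; others are named to complete a count, and 1 member that enters the counts is not reported here by name. Promoter windows and motifs come from RefSeq GRCh38.p14. Alternatives were a pseudocount of 0.1, no filter, a filter at 5 FPKM, 4 scalings, no trend and no robust estimation, each line alone, a block for replicate number, and each library left out in turn.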

Additional observations from a re-analysis of the deposited data

Results flagged for a closer look

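The change with ASLAN003 differed between KG-1 and MOLM-14 for 9 members by the interaction contrast of limma, with Benjamini-Hochberg adjustment over all tested genes. The change in KG-1 minus that in MOLM-14 was -1.50 for ATP5G1, -1.02 for ATP5D, -0.81 for NDUFA10, -0.81 for NDUFB1, -0.73 for NDUFA12, -0.64 for ATP5I and -0.45 for ATP5O. It was 0.60 for NDUFA9 and 0.53 for ATP5SL. Over the 21 alternatives the adjusted p ranged within 0.00185 to 0.0258 for ATP5G1, 0.00248 to 0.0213 for ATP5D, 0.00106 to 0.00936 for NDUFA10, 0.00386 to 0.0491 for NDUFB1 and 0.00527 to 0.0260 for NDUFA12. For ATP5I it reached 0.0905, for ATP5O 0.114, for NDUFA9 0.0888 and for ATP5SL 0.0714.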

How the results depend on the processing

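No call of a member changed sign under any alternative. In KG-1, rescaling to 1000000 gave 10 members higher and 13 lower (median -0.015), centring 2 higher (median -0.28) and rescaling without abundant classes 2 higher. In MOLM-14, 7 were higher when rescaled to 1000000 (median 0.056), and 0 with centring (median -0.21), quantile normalization, no trend and no robust estimation, or each line alone; 3 were lower without abundant classes, 9 centred, 2 quantile normalized and 0 in each line alone. The difference of the changes had 1 higher without abundant classes and with no trend and no robust estimation. In DMSO, 22 were higher in KG-1 when rescaled to 1000000 (median 0.072). Without 1 library, the ranges were 2 to 5 higher, 17 to 29 lower and medians of -0.19 to -0.11 in KG-1; 0 to 5, 1 to 3 and -0.082 to 0.0047 in MOLM-14; 0 to 2, 5 to 18 and -0.21 to -0.084 for the difference of the changes; and 11 to 17, 20 to 26 and -0.080 to -0.021 in DMSO. The replicate numbers share no stated source, and deviations of same-numbered libraries correlated at 0.020 to 0.041 in KG-1 and -0.0019 to 0.10 in MOLM-14; not every library correlated best with its own number. With the replicate number as a block, the difference of the changes had 1 member higher and 6 lower, KG-1 had 3 higher and 24 lower, MOLM-14 had 1 and 1, and in DMSO KG-1 had 16 higher and 23 lower. The cause of these shifts was not tested. Depth limits NDUFA4L2 and NDUFA6-AS1.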
